A study of Mus musculus with 108 samples.

Results

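The genes described here control the arrest of the mouse egg at metaphase II (MII) through the anaphase-promoting complex (APC/C), and they were chosen by name: Mos, Map2k1, Rps6ka1, Fbxo43, Plk1, Ppp2r5c, Fbxo5, Cdc20 and Fzr1. Each symbol matched 1 Ensembl gene ID, so the set was 9 of the 55573 gene IDs in the count files. RNA was sequenced from single mouse oocytes in which Exosc10, which codes for a catalytic RNase of the exosome in the nucleus, was knocked out in the oocyte only (cKO), and from control oocytes (ctr). Oocytes were taken at the germinal vesicle stage (GV, before meiosis resumes), after 3 hours of culture in M2 medium (GV3h), or as MII eggs from the oviduct. The polyA libraries, made from RNA captured on oligo(dT) beads, held 7 control oocytes of 2 females and 15 cKO oocytes of 2 females at GV. At GV3h they held 8 control and 11 cKO oocytes of 3 females each, and at MII 8 control and 15 cKO oocytes of 3 females each. The RiboMinus libraries, primed with random hexamers and depleted of ribosomal RNA, held 8 control and 7 cKO oocytes of 2 females each at GV, 3 control oocytes of 1 female at MII, and 4 cKO oocytes of 2 females at MII. No female was shared between groups or between library types. The age of the females, their strain and the Cre driver are not given in the sources used here.

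Ovulated eggs of mammals wait for the sperm with their chromosomes aligned at metaphase II. The kinase MOS activates MEK1 (Map2k1), ERK and the p90 ribosomal S6 kinases (Rps6ka1), and this cascade keeps the APC/C inhibitor EMI2 (Fbxo43) active with the help of protein phosphatase 2A bound through a B56 subunit (Ppp2r5c). At fertilization calcium activates CaMKII, which together with PLK1 marks EMI2 for destruction, and the APC/C with its co-activator CDC20 then degrades cyclin B and securin. Earlier, in the GV oocyte, the APC/C works with its other co-activator CDH1 (Fzr1), and EMI1 (Fbxo5) restrains it. Transcription stops in the grown oocyte, and many stored mRNAs change the length of their poly(A) tails during maturation through cytoplasmic polyadenylation elements (CPEs) near the polyadenylation hexamer.

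Because one library type selects RNA by its poly(A) tail and the other does not, the 3′ ends of the mRNAs are shown first. For each gene the coding transcript with the most distal annotated 3′ end was used. Each line gives 30 bases around the last hexamer, 5′ to 3′ on the transcript strand, from the GENCODE M21 annotation on GRCm38 (mm10), with hexamers (AATAAA or ATTAAA) and CPEs (TTTTAT or TTTTAAT) in capitals.
Mos: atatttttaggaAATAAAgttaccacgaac
Map2k1: ctatcaagttaaAATAAAagggacaagaga
Rps6ka1: caaggcctttctAATAAActtacaatccag
Fbxo43: ttaaaactaataATTAAAtttaaaatttac
Plk1: agctttatatatATTAAAatgtgtacatct
Ppp2r5c: ttatatggactaAATAAAgaacatgtgaat
Fbxo5: tttgtttagttaaAATAAAtttagaggtgt
Cdc20: tgtTTTTATTTTATtttttctAATAAAgtt
Only the Cdc20 site of these 8 held CPE letters, as a pair of overlapping TTTTAT copies that start 40 and 35 bases from the end of its 62-base 3′UTR, ahead of AATAAA at 22 bases. Within the last 150 bases, single TTTTAT copies also stood 103 bases from the end in Fbxo43, 84 in Fbxo5 and 71 in Ppp2r5c. The annotated ends of Mos (all 126 bases of its 3′UTR), Plk1, Map2k1, Rps6ka1 and Fzr1 held neither CPE form, and the end of Fzr1 held no hexamer, so no site of it is printed. For comparison, 13111 protein-coding genes tested in both library types had an annotated 3′UTR of at least 150 bases. Of these, 24.9% held a CPE form in this window and 83% a hexamer. The shorter 3′UTRs of Mos and Cdc20 are not among them. The transcript strand alone was searched, and a match of letters is a description of the annotation, not a measured site.

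The printed sites lie at chr4:3870661-3870690 (Mos), chr9:64185773-64185802 (Map2k1), chr4:133847295-133847324 (Rps6ka1), chr15:36150068-36150097 (Fbxo43), chr7:122169843-122169872 (Plk1), chr12:110583029-110583058 (Ppp2r5c), chr10:5799160-5799189 (Fbxo5) and chr4:118432914-118432943 (Cdc20), all in the last exon and the 3′UTR, on the minus strand except Plk1 and Ppp2r5c on the plus strand. Fzr1 spans chr10:81366222-81378516 on the minus strand. Mos is a single-exon gene of 1449 bases. Exons of 4 members overlap a gene on the other strand, over 7.09% of merged exon length in Plk1 (Gm44985), 5.8% in Rps6ka1 (Gm12977), 2.84% in Cdc20 (Elovl1) and 0.0891% in Fzr1 (Mfsd12). The strand setting of the counting is not given in the sources used here, so reads in those stretches cannot be assigned with certainty.

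Total gene counts per oocyte ranged from 4638718 to 8735914 in the polyA libraries and from 12319658 to 62675760 in the RiboMinus libraries. GV3h control oocytes were the shallowest polyA group, at 4638718 to 5728197 against 5476376 to 8415126 in GV3h cKO oocytes, and the part of depth in the GV3h comparison was not tested. Exosc10 checked the labels: it stood at 43 to 166 CPM (the count scaled to the TMM-normalized library size) in every polyA control oocyte and at 0 to 4.44 CPM in every polyA cKO oocyte, and at 84.9 to 162 against 0.446 to 8.29 CPM in the RiboMinus libraries. All 10 oocyte markers (Zp1 to Zp3, Gdf9, Bmp15 and others) reached a median of at least 1 CPM in each of the 10 groups, with sums of 5238 to 22024 CPM per oocyte. The 12 granulosa and cumulus markers summed to 67.8 to 204 CPM per oocyte, mostly Nr5a2 and Cyp19a1, and Ptx3 and Tnfaip6 had a median of 0 in every group. The lowest median correlation of log2 CPM with the other oocytes of a group was 0.867 across genes, for V857_3 of the polyA GV cKO group. The other V857 oocytes lay at 0.869 to 0.905, and most oocytes of that group came from the female V888. V983_3 of the GV3h cKO group stood at 0.883. No spike-in was used here, so all values are relative to the other genes of a library.

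In control GV oocytes Mos was the most abundant of the 9 mRNAs per length. Its median polyA level was 1243 CPM per kilobase of exon (range 1153 to 1543, 7 oocytes), against 104 for Plk1 and 98.3 for Fbxo5, whose ranges overlapped. Cdc20 (47.7), Fbxo43 (40.3), Map2k1 (40.1) and Fzr1 (34.8) followed, with ranges that overlapped between neighbours, then Ppp2r5c (11.9) and Rps6ka1 (4.30). In polyA libraries of MII controls Mos stood at 2332 CPM per kilobase, Cdc20 at 183, Map2k1 at 125, Fbxo43 at 122, Fbxo5 at 110, Plk1 at 107, Ppp2r5c at 18.7, Fzr1 at 6.86 and Rps6ka1 at 3.39. The ranges of Cdc20 and Map2k1 overlapped, as did those from Map2k1 to Plk1 and of Fzr1 and Rps6ka1, while those of Ppp2r5c and Fzr1 did not. The RiboMinus order was another at MII. In those controls (3 oocytes of 1 female) Fbxo5 stood at 166, Plk1 at 91.7, Mos at 82.6, Ppp2r5c at 50.5 and Map2k1 at 36.5 CPM per kilobase. Fbxo43 (20.9), Fzr1 (17.5), Rps6ka1 (4.55) and Cdc20 (3.77) were lower. In RiboMinus GV controls Mos was highest, at 307, and Plk1 stood at 122.

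**Figure D1:**
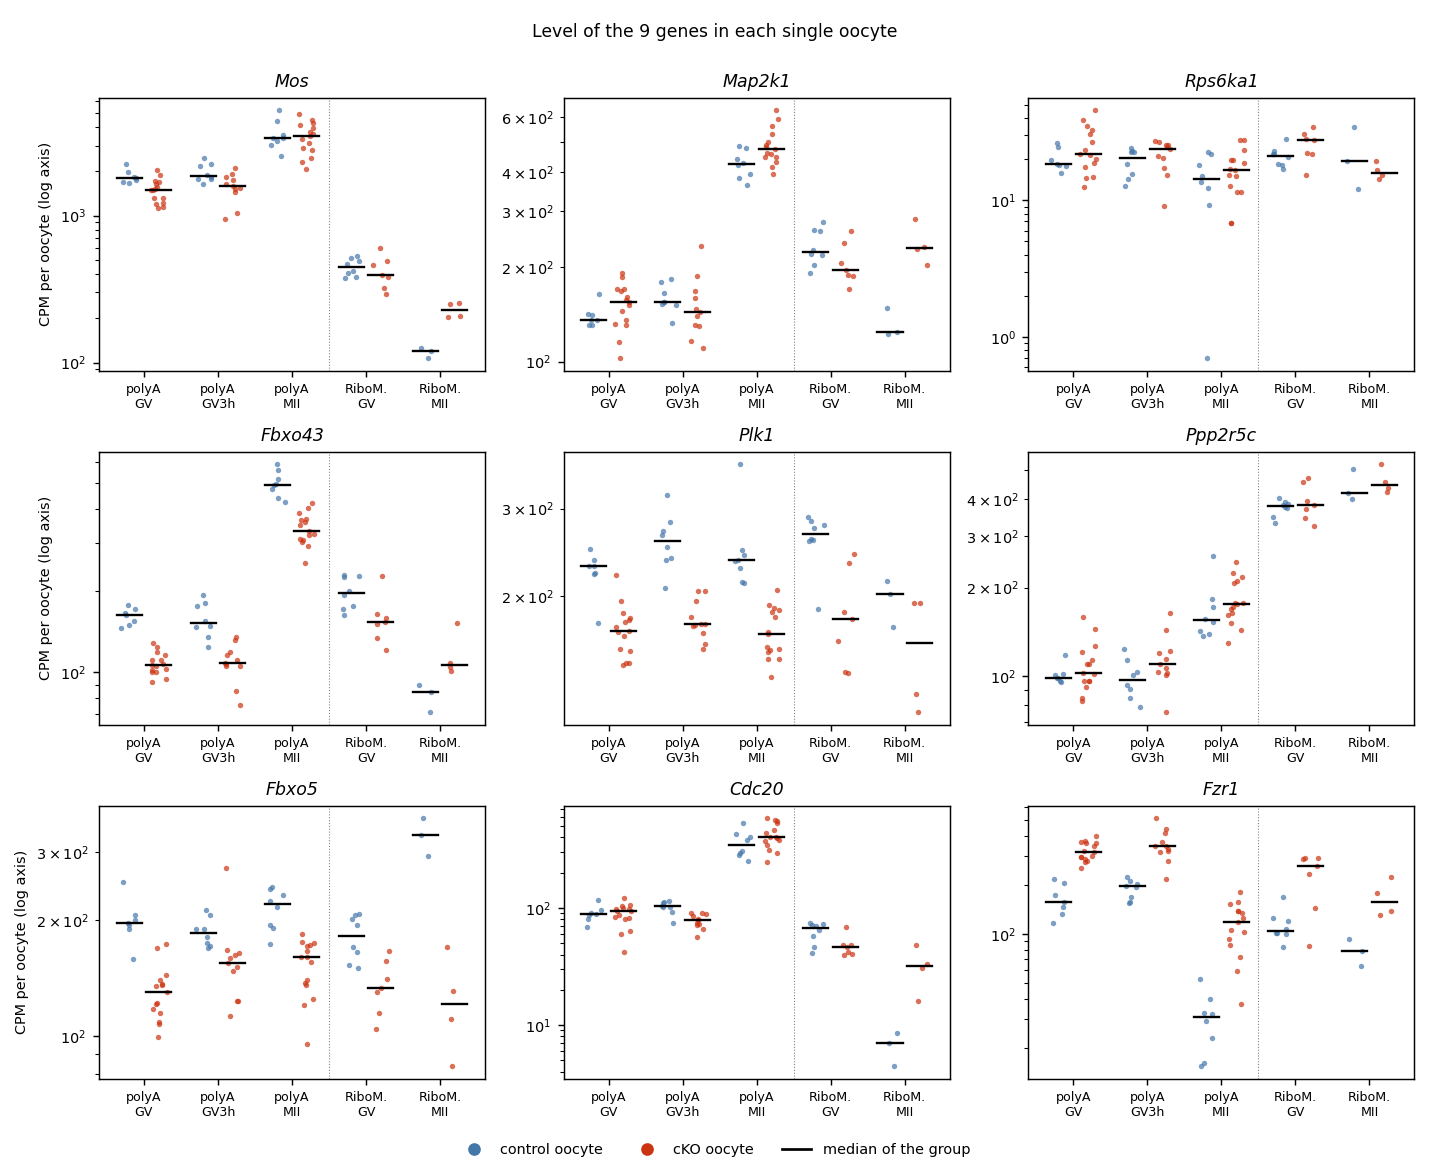
CPM of each gene in each single oocyte (log axis), with control oocytes in blue and cKO oocytes in red for each library type and stage, and black bars at the group medians. Mos, Map2k1, Fbxo43 and Cdc20 lie higher at MII than at GV in polyA oocytes, while in RiboMinus control oocytes they lie lower, and Fzr1 is higher in cKO than in control oocytes at most stages.

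The knockout was compared with control at each stage to see which of these mRNAs differed when Exosc10 was missing. In polyA libraries the APC/C inhibitor mRNAs Fbxo43 and Fbxo5 were lower in cKO oocytes at all 3 stages and Plk1 at GV3h and MII, while the co-activator mRNA Fzr1 was higher at GV3h and MII. Counts of a female were summed, so the female was the replicate, and edgeR's quasi-likelihood test was adjusted over all genes tested. A gene is described as called where this test gave an adjusted p below 0.05, unless another tool or setting is named. At GV 2 of 9 members were called, Fbxo43 and Fbxo5, both lower, where 7.38% of 19242 genes were called (3.47% higher and 3.91% lower). At GV3h 5 of 9 were called, 4 lower and 1 higher, against 25.2% of all genes (12.5% higher and 12.7% lower). At MII 4 of 9 were called, 3 lower and 1 higher, against 18.9% (11.9% higher and 6.99% lower). The members' median log2 fold change was −0.17 at GV, −0.33 at GV3h and 0.04 at MII, beside medians over all genes of 0.08, 0.07 and 0.12.

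These counts rest on few females. The GV count dropped to 0 of 9 without the cKO female V857 or the control V889, to 1 without the control V856, and to 0 when only the GV groups were fitted, where 1 gene of all was called in place of 1420. At GV3h it dropped to 2 without V993, V951 or V995 and to 3 without V983 or V982. With no filter on low counts both GV calls were lost and Fzr1 was called instead (0.97, edgeR adjusted p = 0.00054), while 3 members were called at GV3h, without Cdc20 and Fbxo5, and 2 at MII, without Fbxo43 and Fbxo5.

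In RiboMinus libraries at GV, edgeR called 0 of 9 members (0.0315% of 25425 genes were called, 0.0275% higher and 0.00393% lower), with 1 member, Fzr1, at an unadjusted p under 0.05. With oocytes as replicates edgeR called 3, limma voom with the female as a block called 1, and DESeq2 on the female sums called 0. That background is 8 genes, and it was 1184 genes without V1126, where 0 members were called, 4922 with oocytes as replicates, 1590 with limma voom and 1573 with DESeq2, beside 3727 genes at an unadjusted p under 0.05. At RiboMinus MII 2 of 9 members were called, Cdc20 higher and Fbxo5 lower, against 7.3% of all genes (3.61% higher and 3.69% lower). The count was 1 without the oocyte V1166_2 or V1167_1 and 3 without the female V1167, while DESeq2 called 4, limma voom 5 and edgeR on oocytes 6. Over all genes these tools called 5228, 4736 and 6620, in place of 1857. The members' median was 0.37 there, beside 0.25 over all genes. The RiboMinus MII controls were oocytes of 1 female, V1145, assumed in the fit to vary like the other groups, so in every RiboMinus MII comparison that involves controls the genotype or the stage and that female cannot be told apart. The granulosa marker sum of these MII controls (153 to 169 CPM) lay above that of the MII cKO oocytes (72.4 to 114 CPM) and of the GV controls (104 to 150 CPM). The markers did not move together. In that order of groups the medians were 128, 63.3 and 70.6 CPM for Nr5a2 and 4.91, 0.338 and 0.679 CPM for Has2. They were 15.06, 13.39 and 27.85 CPM for Cyp19a1, 8.1, 7.9 and 11.62 CPM for Kitl and 0.467, 5.26 and 0.94 CPM for Ptgs2. The other markers had medians of 1.65 CPM or less. The part of these markers in these comparisons was not tested.

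**Figure D2:**
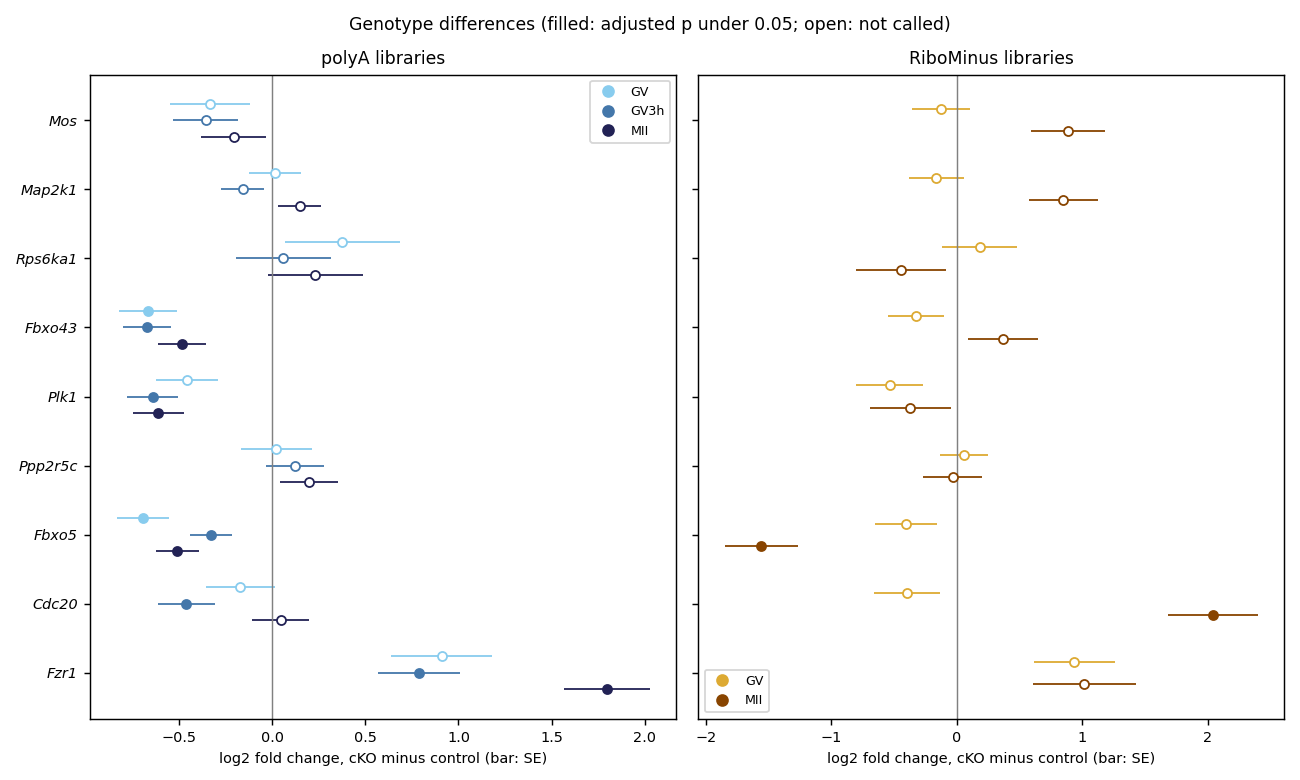
Log2 fold change of each gene, cKO minus control, with its standard error, from female sums in polyA (left) and RiboMinus libraries (right), where each colour is a stage and filled points passed an adjusted p of 0.05. Fbxo43, Plk1 and Fbxo5 lie left of 0 at every polyA stage and Fzr1 lies right of 0 in all 5 comparisons.

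Of the MAPK cascade, the members Mos, Map2k1 and Rps6ka1 were not called between genotypes at any polyA stage by edgeR on female sums. With oocytes as replicates Mos was called lower at GV3h (−0.33, edgeR adjusted p = 0.041). Mos, the kinase that starts the cascade, had a lowest, median and highest CPM of 1670, 1801 and 2236 in GV control oocytes and of 1125, 1501 and 2034 in GV cKO oocytes. Of the 15 cKO oocytes 11 lay below all controls, and the other 4 were among them. The log2 difference was −0.33 ± 0.21 (SE) at GV, −0.36 ± 0.18 at GV3h and −0.21 ± 0.17 at MII, with edgeR adjusted p of 0.37, 0.15 and 0.44.

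At GV3h Mos ranged over 1651, 1860 and 2460 CPM in controls and 949, 1596 and 2125 CPM in cKO oocytes, and at MII over 2544, 3379 and 5209 CPM against 2062, 3510 and 4899 CPM. Both pairs of groups overlapped. In RiboMinus MII oocytes Mos was at 120, 107 and 126 CPM in the 3 controls and at 253, 252, 206 and 205 CPM in the 4 cKO oocytes. The groups did not overlap, but the difference of 0.89 ± 0.29 was not called (edgeR adjusted p = 0.096). It was called by DESeq2 (0.95, adjusted p = 0.018) and with library totals (1.08, edgeR adjusted p = 0.042).

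Map2k1 encodes MEK1. Its polyA differences between genotypes were 0.01 ± 0.14 at GV, −0.16 ± 0.12 at GV3h and 0.15 ± 0.12 at MII, and none was called. In RiboMinus MII oocytes it stood at 147, 123 and 124 CPM in controls and at 283, 203, 232 and 228 CPM in cKO oocytes. All 4 cKO oocytes were above all 3 controls, at a difference of 0.85 ± 0.28 (edgeR adjusted p = 0.092), which was not called. DESeq2 (0.91, adjusted p = 0.015) and library totals (1.04, edgeR adjusted p = 0.043) gave a call.

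Rps6ka1, one of the p90 ribosomal S6 kinase genes, had the lowest polyA level per length of the set in GV and MII controls. Its medians per group lay between 14.4 and 27.6 CPM, its genotype differences between −0.44 and 0.38 on the log2 scale, and none was called. One MII control oocyte held 4 counts of it (0.701 CPM) while the highest of its group stood at 22.4 CPM.

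Fbxo43, which encodes the inhibitor EMI2, was lower in cKO oocytes at all polyA stages. At GV the control oocytes ranged over 145, 163 and 177 CPM and the cKO oocytes over 92.2, 106 and 128 CPM. All 15 cKO oocytes lay below all 7 controls. By female, the controls were at 162 (V856) and 158 CPM (V889) and the cKO at 95 (V857) and 107 CPM (V888), a log2 difference of −0.67 ± 0.16 (edgeR adjusted p = 0.021).

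At MII Fbxo43 ranged over 426, 494 and 587 CPM in controls and 254, 332 and 423 CPM in cKO oocytes. Again all 15 cKO oocytes lay below all 8 controls, and the difference was −0.49 ± 0.13 (edgeR adjusted p = 0.016). At GV3h it was −0.67 ± 0.13 (adjusted p = 0.0015 by edgeR), with 9 of 11 cKO oocytes below all controls. The MII call was lost without V842, V897 or V853, at a log2 difference of −0.39 without V853. The GV call was lost without V857, V856 or V889, and with library totals in place of TMM (−0.48).

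In RiboMinus libraries Fbxo43 stood at 197 CPM (median) in GV control and 153 CPM in GV cKO oocytes, a difference of −0.33 ± 0.22 that was not called. At MII the controls were at 90, 71.1 and 84.4 CPM and the cKO oocytes at 108, 152, 104 and 101 CPM. All 4 cKO oocytes lay above the 3 controls, and the difference of 0.37 ± 0.28 was not called by edgeR on female sums, but was with oocytes as replicates (0.51, edgeR adjusted p = 0.047). Whether the genotype difference itself depended on library type was not tested.

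Plk1, the kinase that marks EMI2 for destruction, was lower in cKO oocytes at GV3h and MII. At GV3h it ranged over 208, 258 and 320 CPM in controls and 156, 176 and 205 CPM in cKO oocytes. At MII the ranges were 212, 236 and 368 CPM and 137, 168 and 206 CPM. In both stages no cKO oocyte reached the lowest control.

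The Plk1 differences were −0.64 ± 0.14 at GV3h (edgeR adjusted p = 0.0033) and −0.61 ± 0.14 at MII (edgeR adjusted p = 0.0066). At GV the difference of −0.46 ± 0.17 was not called (edgeR adjusted p = 0.11), with 9 of 15 cKO oocytes below all controls. RiboMinus differences were −0.53 ± 0.27 at GV and −0.37 ± 0.32 at MII, neither called by edgeR on female sums. With oocytes as replicates edgeR called Plk1 lower at RiboMinus GV (−0.51, adjusted p = 0.012) and at polyA GV (−0.39, adjusted p = 0.00023).

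Ppp2r5c, a B56 regulatory subunit of protein phosphatase 2A, was not called between genotypes anywhere. At polyA MII it ranged over 137, 155 and 255 CPM in controls and 130, 176 and 244 CPM in cKO oocytes, which overlapped, and at RiboMinus MII it stood at 418, 506 and 400 CPM against 437, 524, 422 and 456 CPM. Its differences lay between −0.03 and 0.20 on the log2 scale over the 5 comparisons.

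Fbxo5, which encodes EMI1, was lower in cKO oocytes at all polyA stages and at RiboMinus MII. At polyA GV it ranged over 159, 197 and 250 CPM in controls and 99.9, 130 and 173 CPM in cKO oocytes, with 13 of 15 cKO oocytes below all controls. At polyA GV3h it ranged over 169, 185 and 212 CPM against 113, 155 and 272 CPM, with 10 of 11 cKO oocytes below all controls and 1 above them. At polyA MII the ranges were 174, 220 and 244 CPM and 95.5, 160 and 184 CPM, with 12 of 15 below. The log2 differences were −0.69 ± 0.14 at GV, −0.33 ± 0.11 at GV3h and −0.51 ± 0.11 at MII, with edgeR adjusted p of 0.01, 0.045 and 0.0065.

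The GV call of Fbxo5 was lost without V857 or V889. The GV3h call was lost without any 1 of V983, V993, V951, V982 or V995, and with oocytes as replicates in edgeR (adjusted p = 0.076) or limma voom (adjusted p = 0.12). Library totals in place of TMM also lost it, at a difference of −0.10, as did DESeq2 size factors (edgeR adjusted p = 0.077). So did no filter, a filter at a mean of 50 counts, and a fit of only the groups compared (edgeR adjusted p = 0.38, 0.059 and 0.059). It was kept by DESeq2's own test and without V946.

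At RiboMinus MII the 3 control oocytes held 366, 292 and 332 CPM of Fbxo5 and the 4 cKO oocytes 83.7, 131, 111 and 171 CPM. The groups did not overlap, and the difference was −1.56 ± 0.29 (edgeR adjusted p = 0.024). It was no longer called without the cKO oocyte V1167_1 (−1.38). At RiboMinus GV, with 150, 182 and 207 CPM in controls and 104, 134 and 167 CPM in cKO oocytes, the difference of −0.41 ± 0.25 was not called by edgeR on female sums, but was with oocytes as replicates (−0.42, edgeR adjusted p = 0.027).

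Cdc20, the co-activator of the APC/C at exit from metaphase, was called at polyA GV3h and at RiboMinus MII. At polyA GV3h it was lower in cKO oocytes, at 56.1, 78.1 and 90.1 CPM against 74.4, 103 and 113 CPM in controls, by −0.46 ± 0.15 (edgeR adjusted p = 0.036). The groups overlapped in 6 of 11 cKO oocytes. That call was lost when any 1 of the 6 GV3h females was left out, and with library totals, where the difference was −0.23. At polyA GV and MII the differences were −0.17 ± 0.19 and 0.04 ± 0.15, not called.

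At RiboMinus MII Cdc20 stood at 8.58, 7.03 and 4.46 CPM in the controls and at 16, 48.7, 30.7 and 33.4 CPM in the cKO oocytes. Counts were low in the controls, at 86 to 132 per oocyte. All 4 cKO oocytes were above all 3 controls, and the difference was 2.04 ± 0.36 (edgeR adjusted p = 0.022), which was not called without the cKO oocyte V1166_2 (1.82).

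Fzr1, which encodes the co-activator CDH1, was called higher in cKO oocytes at polyA GV3h and MII. At polyA MII it ranged over 15.4, 30.8 and 52.8 CPM in controls and 37.2, 119 and 182 CPM in cKO oocytes. By female, the controls were at 28.9, 27.5 and 40.7 CPM and the cKO at 72.5, 145 and 119 CPM, so no cKO female overlapped a control, and 14 of 15 cKO oocytes were above all controls. The difference was 1.80 ± 0.23 (edgeR adjusted p = 0.00014).

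At polyA GV Fzr1 ranged over 117, 156 and 218 CPM in controls and 252, 320 and 400 CPM in cKO oocytes. All 15 cKO oocytes were above all 7 controls, but the difference of 0.91 ± 0.27 was just outside the threshold (edgeR adjusted p = 0.053), and it was called by DESeq2 (0.94, adjusted p = 0.014) and with library totals (1.09, edgeR adjusted p = 0.027). At GV3h, with 154, 197 and 224 CPM against 217, 344 and 512 CPM and 10 of 11 cKO oocytes above all controls, it was 0.79 ± 0.22 (edgeR adjusted p = 0.017). The GV3h call was lost without V993, V951 or V995.

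RiboMinus values of Fzr1 were also higher in cKO oocytes, without a call by edgeR on female sums. At GV the median was 104 CPM in controls and 261 CPM in cKO oocytes, with 5 of 7 cKO oocytes above all controls (0.94 ± 0.32, edgeR adjusted p = 0.25). At MII the controls held 64, 93.5 and 78.7 CPM and the cKO oocytes 131, 137, 222 and 178 CPM, which did not overlap (1.02 ± 0.41, edgeR adjusted p = 0.15). limma voom called Fzr1 at both stages (adjusted p = 0.039 at GV and 0.044 at MII), as did edgeR on oocytes and edgeR with no filter.

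The change from GV to MII was then compared within each genotype. In polyA libraries Cdc20, Map2k1, Fbxo43, Mos and Ppp2r5c rose and Fzr1 fell in both genotypes. In controls 6 of 9 members were called by edgeR, 5 higher and 1 lower, against 42.5% of all genes (16.8% higher, 25.7% lower). In cKO oocytes 7 of 9 were called, 6 higher and 1 lower, against 44.7% (18.1% higher and 26.6% lower). The members' median was 0.70 in controls and 0.87 in cKO oocytes, where the medians over all genes were −0.26 and −0.33. The granulosa marker sum was also higher at MII, at 103 to 175 CPM against 81.5 to 108 CPM at GV in controls. In cKO oocytes it was 93.3 to 159 against 69.2 to 102 CPM. The markers did not move together. The median of Cyp19a1 rose from 38.56 to 94.43 CPM in controls and from 19.35 to 74.6 CPM in cKO oocytes. That of Nr5a2 fell from 37.85 to 23.01 and from 43.13 to 29.14 CPM. Kitl rose in controls (5.49 to 13.04 CPM) and fell in cKO oocytes (13.55 to 8.6 CPM). The other markers had medians of 4.14 CPM or less in these groups. The part of these markers in the stage comparison was not tested.

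In controls Cdc20 went from a median of 89 CPM at GV to 342 CPM at MII, with every MII oocyte above every GV oocyte, a log2 change of 2.03 ± 0.18 (edgeR adjusted p = 2.5e-07). Fbxo43 went from 163 to 494 CPM (1.64 ± 0.15) and Map2k1 from 136 to 425 CPM (1.63 ± 0.14), also without overlap. Mos went from 1801 to 3379 CPM (1.01 ± 0.20, edgeR adjusted p = 0.00072). All 8 MII control oocytes, at 2544 CPM or more, were above all 7 GV controls, at 2236 CPM or less.

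Ppp2r5c rose by 0.70 ± 0.18 in controls and by 0.87 ± 0.18 in cKO oocytes, with edgeR adjusted p of 0.0047 and 0.00089. With library totals in place of TMM these were 0.27 and 0.36 and no longer called, and the control call was also lost without V856 (0.66). Fzr1 fell by 2.36 ± 0.25 in controls, from 156 to 30.8 CPM, and by 1.48 ± 0.24 in cKO oocytes, from 320 to 119 CPM. No MII oocyte reached the lowest GV oocyte in either genotype.

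In cKO oocytes the rises were 2.25 ± 0.18 for Cdc20, 1.82 ± 0.15 for Fbxo43, 1.77 ± 0.14 for Map2k1 and 1.14 ± 0.20 for Mos, with edgeR adjusted p from 1e-07 to 0.00027. Fbxo5 was called higher there (0.35 ± 0.13, edgeR adjusted p = 0.036) but was −0.17 and not called with library totals, and its call was lost when any 1 of the 5 females was left out. Plk1 (0.22 ± 0.15 in controls, 0.07 ± 0.15 in cKO) and Rps6ka1 (−0.46 ± 0.28 and −0.60 ± 0.28) were not called. With library totals Plk1 in cKO oocytes turned to −0.46 and was called lower (edgeR adjusted p = 0.017). Rps6ka1 was also called lower with library totals, at −0.88 in controls and −1.12 in cKO oocytes (edgeR adjusted p = 0.019 and 0.004). In cKO oocytes it was called without V888 as well (−0.98, edgeR adjusted p = 0.016) and with oocytes as replicates (−0.58, edgeR adjusted p = 0.013).

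Between GV and GV3h edgeR called 0 of 9 members in either genotype, as it called 0% of all genes, with 0 members at an unadjusted p under 0.05 and 0 called by DESeq2, limma voom or edgeR on oocytes. Over all genes 425 in controls and 373 in cKO oocytes had an unadjusted p under 0.05. DESeq2 called 16 and 17 genes, limma voom 17 and 31, and edgeR on oocytes 45 and 255. Member differences lay between −0.40 and 0.26 on the log2 scale.

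In RiboMinus control oocytes the differences between GV and MII were negative for Mos, Cdc20, Fbxo43 and Map2k1, which rose in polyA libraries, and positive for Ppp2r5c (0.22 ± 0.23), which rose there too. Mos control oocytes ranged over 373, 445 and 534 CPM at GV and stood at 120, 107 and 126 CPM at MII, which did not overlap. Cdc20 ranged over 41.2, 66.8 and 74.2 CPM at GV and stood at 8.58, 7.03 and 4.46 CPM at MII. The control differences were −3.25 ± 0.39 for Cdc20, −1.92 ± 0.31 for Mos, −1.26 ± 0.29 for Fbxo43 and −0.82 ± 0.28 for Map2k1, and Fbxo5 was at 0.88 ± 0.29.

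None of these passed the threshold: edgeR called 0 of 9 members in controls (0.00787% of all genes), with 5 at an unadjusted p under 0.05. DESeq2 called 3, and limma voom and edgeR on oocytes called 5 each. Over all genes 3834 had an unadjusted p under 0.05, and these tools called 1545, 1338 and 3715. In RiboMinus cKO oocytes edgeR called 0 of 9 (2.32% of all genes, 0.61% higher and 1.71% lower), with 3 at an unadjusted p under 0.05, 2 called by DESeq2, 1 by limma voom and 2 by edgeR on oocytes. Over all genes these numbers were 5166, 2925, 3795 and 4284. Mos stood at −0.90 ± 0.23 there, Cdc20 at −0.81 ± 0.26 and Map2k1 at 0.19 ± 0.22.

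**Figure D3:**
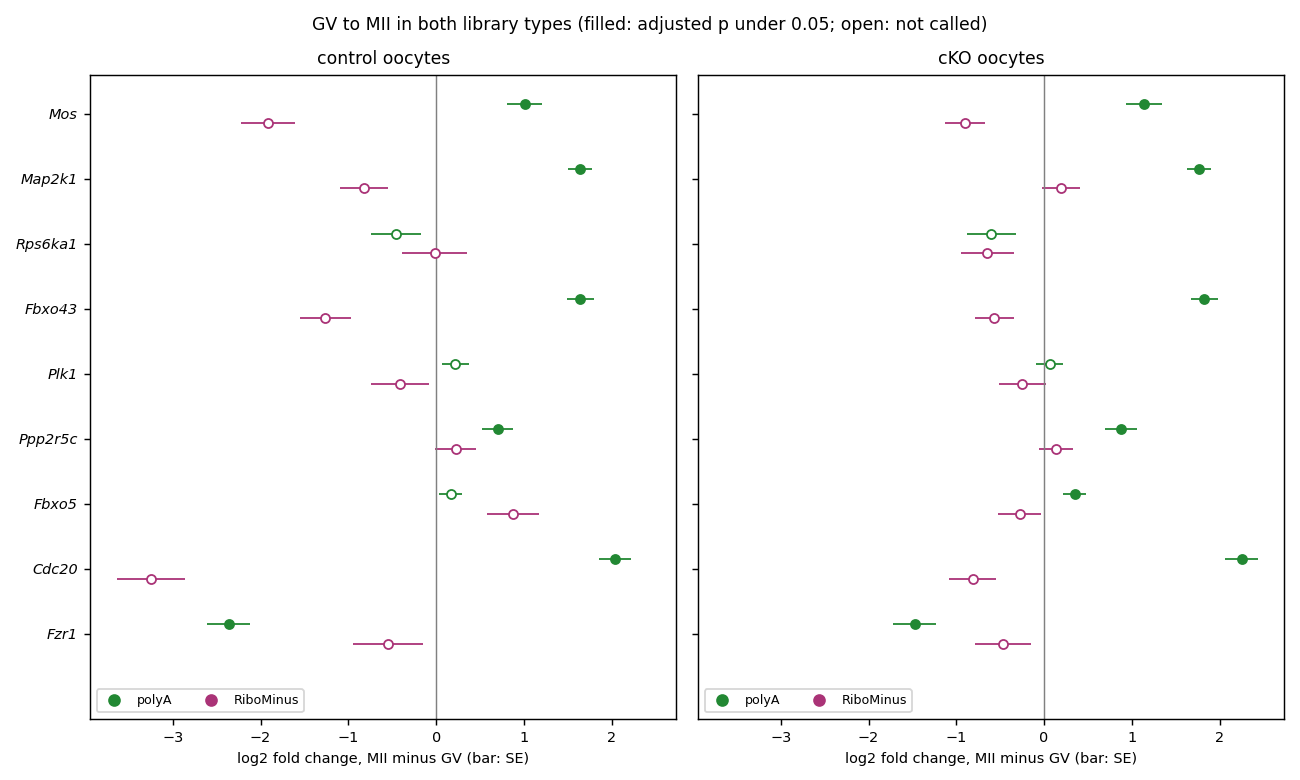
Log2 fold change from GV to MII with its standard error, for polyA (green) and RiboMinus libraries (purple) in control (left) and cKO oocytes (right), where filled points passed an adjusted p of 0.05. In controls Cdc20 lies at 2.03 in polyA and −3.25 in RiboMinus libraries, and Mos at 1.01 and −1.92.

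The difference between the library types was tested directly, as the stage change in polyA minus the stage change in RiboMinus libraries, in a fit of all 23 females. In controls 5 of 9 members were called by edgeR, 4 higher and 1 lower, against 22.8% of 24777 genes (10.9% higher and 11.9% lower). Cdc20 differed by 5.45 ± 0.38 (edgeR adjusted p = 4.4e-09), Mos by 3.09 ± 0.38, Fbxo43 by 3.07 ± 0.29 and Map2k1 by 2.62 ± 0.27. Fzr1 was the lower one at −1.65 ± 0.46, and it lost its call without V1133 (−1.46). Fbxo5 stood at −0.55 ± 0.28 and was not called by edgeR on female sums. It was called lower with oocytes as replicates in edgeR (−0.57) and with library totals (−1.07).

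In cKO oocytes 6 of 9 were called, all higher in polyA, against 20.7% of all genes (11.6% higher and 9.17% lower). Cdc20 differed by 3.24 ± 0.30, Fbxo43 by 2.56 ± 0.24, Mos by 2.22 ± 0.32 and Map2k1 by 1.75 ± 0.23, with edgeR adjusted p of 3.8e-07, 7e-07, 3.6e-05 and 1.3e-05. Fzr1 stood at −0.82 ± 0.41 and was not called by edgeR on female sums, but was by limma voom (−1.02, adjusted p = 0.0075) and with library totals (−1.55, edgeR adjusted p = 0.012). Ppp2r5c (0.92 ± 0.26) and Fbxo5 (0.80 ± 0.25) were the other two called. With library totals these 2 were 0.21 and 0.07 and not called, and the Fbxo5 call was lost without V857, V1126 or V1166, or the oocyte V1166_1 or V1167_1. The libraries of the 2 types were made by different methods from different females, and the part of capture and of RNA amount in these differences was not tested.

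As a description, the mean polyA CPM of a gene was divided by its mean RiboMinus CPM over the females of a group. In controls this ratio was 4.01 at GV and 30.4 at MII for Mos, 1.43 and 55.7 for Cdc20, 0.797 and 5.96 for Fbxo43, 0.595 and 3.26 for Map2k1, and 1.42 and 0.403 for Fzr1. In cKO oocytes it was 3.47 and 14.3 for Mos and 1.67 and 14 for Cdc20. For Fbxo5 the ratio was 1.07 at GV and 0.657 at MII in controls, and 0.88 and 1.36 in cKO oocytes. CPM was scaled within each library type, so only the change of a ratio, not its level, can be read.

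Whether the change from GV to MII itself differed between genotypes was tested as an interaction. In polyA libraries edgeR called 0 of 9 members (1.94% of all genes were called, 1.59% higher and 0.353% lower), with 1 at an unadjusted p under 0.05, Fzr1 at 0.89 ± 0.35 (edgeR adjusted p = 0.22). edgeR on oocytes called 1, and limma voom and DESeq2 called 0. Over all genes 3086 had an unadjusted p under 0.05, and these tools called 2742, 781 and 1121. For GV to GV3h edgeR, with females or oocytes, limma voom and DESeq2 all called 0 of 9 (edgeR: 0% of all genes), with 0 at an unadjusted p under 0.05. Over all genes 307 had an unadjusted p under 0.05, and edgeR on oocytes called 9, limma voom 0 and DESeq2 0.

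In RiboMinus libraries 0 of 9 were called by edgeR (0% of all genes), with 4 at an unadjusted p under 0.05. Those were Cdc20 (2.44 ± 0.44), Fbxo5 (−1.15 ± 0.38), Mos (1.01 ± 0.37) and Map2k1 (1.01 ± 0.35). DESeq2 called 1 member, limma voom 4 and edgeR on oocytes 5. Over all genes 3611 had an unadjusted p under 0.05, and these tools called 1127, 833 and 2837. The RiboMinus stage differences themselves were −3.25 in controls and −0.81 in cKO oocytes for Cdc20, and −1.92 and −0.90 for Mos.

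The other genes of the pathway were taken from 5 lists of 37 genes in all: CSF MAPK kinases and partners, APC/C subunits, APC/C E2 enzymes, PP2A subunits, and the exit pathway of CaMKII, calcineurin, securin and separase. All 37 were tested. At polyA GV 1 was called higher and 2 lower in cKO oocytes, beside 3.47% and 3.91% of all genes. At GV3h 3 were higher and 5 lower (12.5% and 12.7% of all genes), and at MII 9 and 0 (11.9% and 6.99%). The medians of the lists were −0.07, −0.17 and 0.32, beside 0.08, 0.07 and 0.12 over all genes. At RiboMinus GV 0 of 37 were called by edgeR, against 0.0315% of 25425 genes. There 7 of the 37 and 3727 of all genes had an unadjusted p under 0.05 (calls of the other tools were not counted over these lists). At RiboMinus MII 1 was called higher and 2 lower (3.61% and 3.69% of all genes).

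**Figure D4:**
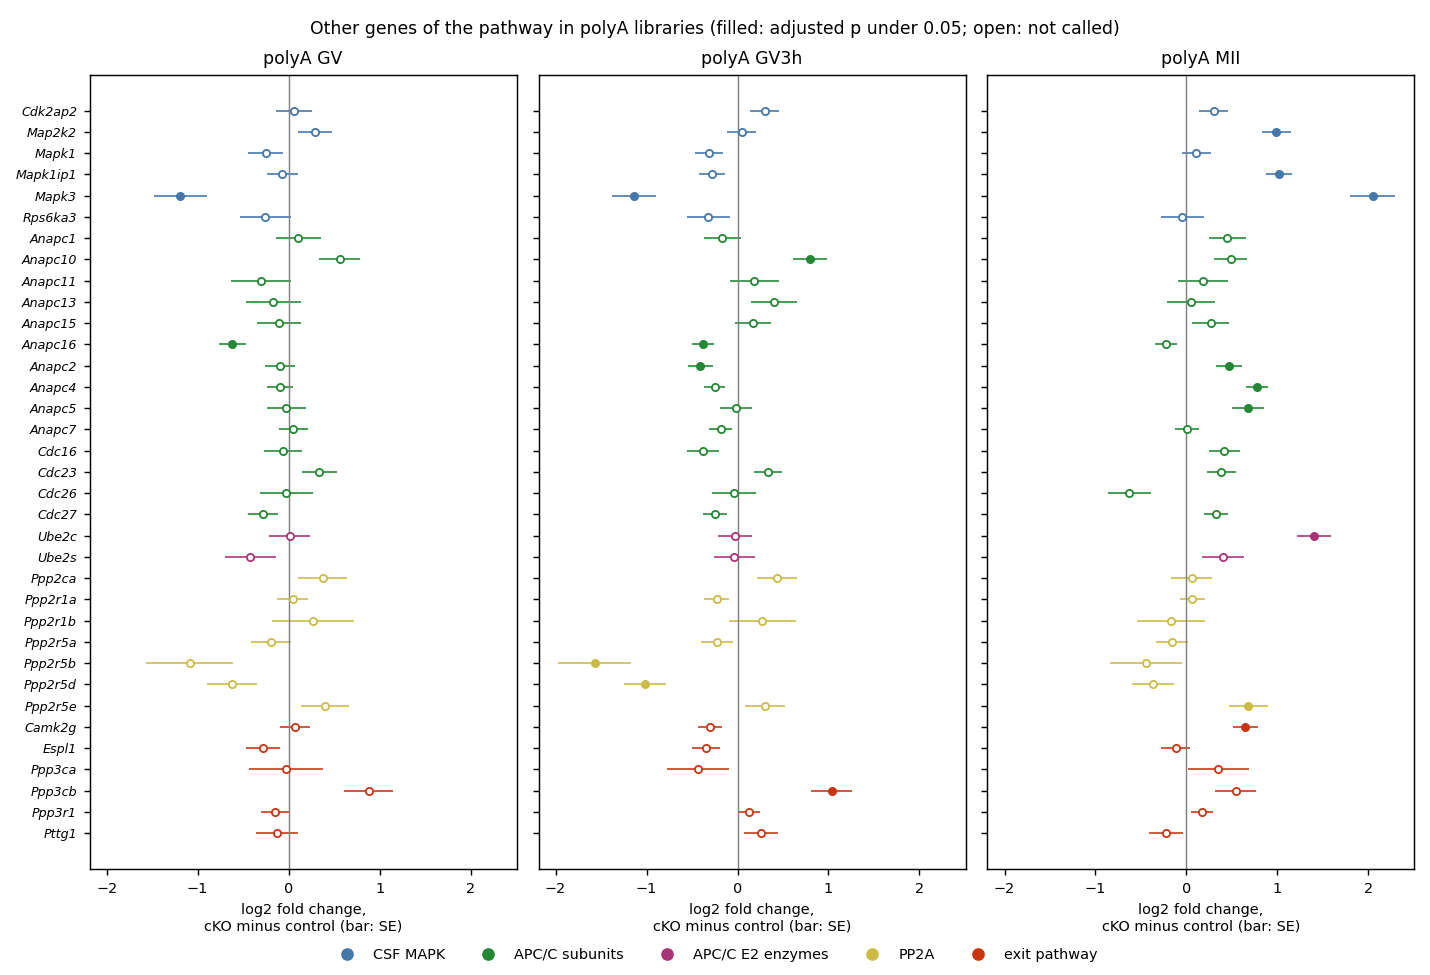
Log2 fold change, cKO minus control, with its standard error at the 3 polyA stages for 35 of the 37 other pathway genes, coloured by list, where filled points passed an adjusted p of 0.05. Ppp2cb and Rps6ka2 are left out because not every control group held more than 3 counts of them. For Rps6ka2 this does not hold at GV, where all 15 cKO oocytes lay below all 7 controls, without a call. Mapk3 lies at −1.19 at GV and 2.05 at MII.

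Mapk3, which encodes the kinase ERK1 downstream of MEK1, was lower in cKO than in control oocytes at polyA GV and higher at polyA MII. At GV it ranged over 271, 292 and 335 CPM in controls and 94.1, 143 and 169 CPM in cKO oocytes, and at MII over 17.3, 35.4 and 63.7 CPM against 51.3, 147 and 252 CPM. All 15 cKO oocytes were below all controls at GV, and 13 of 15 were above all controls at MII. The differences were −1.19 ± 0.29 at GV and 2.05 ± 0.25 at MII (edgeR adjusted p = 0.023 and 8.1e-05), and the interaction of 3.24 ± 0.38 was called (edgeR adjusted p = 0.00092). At RiboMinus MII it was lower in cKO oocytes, at 108, 122 and 191 CPM (lowest, median and highest) against 279, 323 and 354 CPM in the 3 controls, without overlap (−1.31 ± 0.30, edgeR adjusted p = 0.038).

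The interaction was called for 3 other genes of the lists, all higher: Ube2c (1.39 ± 0.29), Mapk1ip1 (1.09 ± 0.23) and Anapc4 (0.87 ± 0.19). With Mapk3 these were 4 of 37, beside 1.94% of all genes (1.59% higher and 0.353% lower). Ube2c, the E2 enzyme that starts ubiquitin chains for the APC/C, ranged over 29.8, 46.3 and 65.6 CPM in polyA MII controls and 63.2, 128 and 169 CPM in cKO oocytes, with 14 of 15 above all controls (1.41 ± 0.19). At RiboMinus MII it went the other way, from 148, 178 and 193 CPM in controls to 28.8, 42 and 75.2 CPM in cKO oocytes (−2.15 ± 0.25, edgeR adjusted p = 0.013), with no overlap. Tnnc2 covers 22.8% of its exon length on the other strand.

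Of the 14 APC/C subunits, 1 was called lower at polyA GV (Anapc16, −0.62 ± 0.15), 1 higher and 2 lower at GV3h (Anapc10, 0.79 ± 0.19; Anapc2, −0.41 ± 0.14; Anapc16, −0.38 ± 0.12) and 3 higher at MII (Anapc4, 0.78 ± 0.12; Anapc5, 0.68 ± 0.18; Anapc2, 0.47 ± 0.14). All genes were called at 7.38%, 25.2% and 18.9% at these stages. Also higher at MII were Map2k2 (MEK2, 0.99 ± 0.16), Mapk1ip1 (1.02 ± 0.15) and Camk2g, the CaMKII gene of the egg (0.65 ± 0.14), which ranged over 651, 914 and 1036 CPM in controls and 1223, 1446 and 1710 CPM in cKO oocytes. All 15 cKO oocytes were above all 8 controls for Camk2g and for Anapc4.

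Among PP2A subunits Ppp2r5b (−1.57 ± 0.40) and Ppp2r5d (−1.02 ± 0.23), other B56 subunits, were lower at polyA GV3h, and Ppp2r5e (0.68 ± 0.22) was higher at MII. Ppp2cb, a catalytic subunit gene, was almost without counts in polyA controls: 3 summed counts in 7 GV oocytes, 1 in 8 GV3h oocytes and 0 in 8 MII oocytes. cKO oocytes held 216 summed counts at GV, 214 at GV3h and 3 at MII. It was called higher at GV and GV3h by edgeR (adjusted p = 0.018 and 0.00095), and at RiboMinus MII, where the controls held 1 summed count and the cKO oocytes 268, and no fold is given.

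In polyA libraries, between GV and MII, 11 of the 37 genes were called higher and 16 lower in controls, and 15 higher and 10 lower in cKO oocytes. Over all genes the shares were 16.8% and 25.7% in controls and 18.1% and 26.6% in cKO oocytes. Of the 6 exit pathway genes 5 rose in both genotypes, among them Pttg1 (securin) by 1.66 ± 0.22 in controls and 1.57 ± 0.22 in cKO oocytes. Of the 14 APC/C subunits 3 rose and 9 fell in controls and 6 rose and 6 fell in cKO oocytes; Anapc2 fell by 2.31 ± 0.15 and 1.75 ± 0.15 and Anapc10 rose by 2.19 ± 0.22 and 2.11 ± 0.22. Ppp2r1a, the scaffold subunit of PP2A, rose by 1.57 ± 0.16 in controls, from 90.4 to 275 CPM, while its RiboMinus control levels were 92.1 CPM at GV (median) and 28.1 to 35.9 CPM at MII. Its library difference was 3.27 ± 0.32 in controls and 2.29 ± 0.26 in cKO oocytes, both called.

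The genes whose pattern over the 10 groups was most like that of Mos were sought by the root mean square difference of log2 CPM group means, each gene centred on its own mean, among 5265 genes tested in both library types with a mean log2 CPM of at least 5. The closest were Susd3 (0.33), Gch1 (0.36), Gm44729 (0.39), C1qtnf12 (0.44) and Ssu72 (0.44). Relative to its own mean, Mos stood at 1.98 in polyA MII controls and at −2.92 in RiboMinus MII controls, and Susd3 at 2.44 and −3.05. The 10 groups share library type and stage, so this is a description and no test was made.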

How the data were processed

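Single-oocyte RNA was measured as gene counts. Per the submitters' processing notes, which give no roles, the authors' tools were cutadapt 2.5, FastQC 0.11.8, STAR 2.7.2a, SAMtools 1.9, HTSeq 0.9.1, R 3.5.1 and DESeq2 1.24.0 with the mm10 build. The deposited counts are raw whole numbers per Ensembl gene, 1 library per file; strand setting and annotation release are not given in the sources used here. Lines that name no gene (no feature, 5.855% to 14.17% of polyA and 8.338% to 12.4% of RiboMinus counts) were left out. The 22 rRNA files were not analysed here.

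Counts were summed per female, since oocytes of one female are not independent. Each library type was fitted with all its groups in edgeR 4.0.16 (R 4.3.3): filterByExpr, TMM, glmQLFit and glmQLFTest, no covariates, two-sided, Benjamini-Hochberg adjusted over all genes tested. SE is the fold change over the root of F. CPM per oocyte uses TMM. All 9 members were named throughout. Of the other lists, counts were given and up to 4 called genes with the largest change could be named. Members and lists were chosen with earlier results of these data known. The alternatives were oocytes as replicates in edgeR or in limma 3.58.1 (voom, with oocytes of a female as a correlated block), DESeq2 1.42.0, other scalings and filters, only the groups compared, and leaving out each female or, at RiboMinus MII, each oocyte. No duplicate libraries were found among 342 polyA and 58 RiboMinus pairs within groups. Scripts were tested on simulated data. Figures used matplotlib 3.10.9.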

Additional observations from a re-analysis of the deposited data

Results flagged for a closer look

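In groups of 4 to 10 oocytes (6 groups, 54 combinations of a member and a group), 9 values stood apart from the rest of their group by Dixon's test at the 95% level. Chance alone flags about 1 in 20 such groups. In the RiboMinus GV cKO group, oocyte V1126_3 was highest for Cdc20 at 68.9 CPM (others 39.7 to 48.7) and for Fbxo43 at 227 CPM (others 121 to 164). In the RiboMinus MII cKO group, oocyte V1166_2 was highest for Fbxo43 at 152.3 CPM (others 101 to 108). Plk1 was low in the RiboMinus GV control oocyte V1133_1 at 189 CPM (others 258 to 288) and in the polyA GV control oocyte V889_3 at 177 CPM (others 222 to 249), and high in the polyA MII control oocyte V836_2 at 368 CPM (others 212 to 248). Map2k1 was high in the polyA GV control oocyte V856_1 at 164 CPM (others 130 to 142). Ppp2r5c was high in the polyA GV control oocyte V889_4 at 118 CPM (others 95.5 to 102) and in the polyA MII control oocyte V853_4 at 255 CPM (others 137 to 183). edgeR on female sums called no interaction of stage and genotype for a member.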

How the results depend on the processing

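No paired analysis was possible because every female gave oocytes of 1 stage, 1 genotype and 1 library type, so no replicate block crosses the groups compared. The 37 called member values had 569 alternative values: 503 kept direction and call, 65 lost the call and 1 reversed, Fbxo5 from GV to MII in polyA cKO oocytes, at −0.17 with library totals. Of 1645 alternative values of members that were not called, 88 became called in the same direction, and Plk1 from GV to MII in polyA cKO oocytes became called the other way, at −0.46 with library totals. Library totals moved the median of all genes by 0.19 at polyA GV and 0.23 at GV3h between genotypes, by −0.43 and −0.52 from GV to MII in polyA control and cKO oocytes, and by −0.32 and −0.70 in the library differences.

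The number of the 9 members called changed by over 1.5 times, or from 0, in the cases that follow, while every other comparison and setting run gave a count within 1.5 times. With oocytes as replicates in edgeR it was 4 in place of 2 at polyA GV, 3 in place of 0 at RiboMinus GV, 6 in place of 2 at RiboMinus MII, 5 and 2 in place of 0 from GV to MII in RiboMinus control and cKO oocytes, 1 and 5 in place of 0 in the polyA and RiboMinus MII interactions, and 8 in place of 5 in the control library difference. With limma voom it was 4 at polyA GV, 3 in place of 5 at GV3h, 1 at RiboMinus GV, 5 at RiboMinus MII, 5 and 1 in the RiboMinus stage changes and 4 in the RiboMinus interaction. With DESeq2 it was 4 at RiboMinus MII, 3 and 2 in the RiboMinus stage changes and 1 in the RiboMinus interaction. With library totals it was 3 at polyA GV3h and 4 at RiboMinus MII. With no filter it was 1 at polyA GV, 3 at GV3h, 2 in place of 4 at polyA MII, 1 at RiboMinus GV, 4 at RiboMinus MII, 3 and 1 in the RiboMinus stage changes and 1 in the RiboMinus interaction. With only the groups compared it was 0 at polyA GV and 5 from GV to MII in RiboMinus controls. The cause of each was not tested. Leaving out a replicate gave 0 to 2 at polyA GV, 2 to 4 at GV3h, 1 to 3 at RiboMinus MII and 0 to 1 from GV to MII in RiboMinus controls. Over all genes, 1420 calls at polyA GV became 5798 with oocytes as replicates and 1 with only the groups compared, 8 calls at RiboMinus GV became 4922 with oocytes as replicates and 1590 with limma voom, and 2 calls from GV to MII in RiboMinus controls became 3715 with oocytes as replicates and 5732 with only the groups compared.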
